A study of Mus musculus with 7 samples.

Results

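The genes described here encode the proteins of the mitochondrial ribosome, the machine that makes the proteins encoded by mitochondrial DNA. They were taken from a table of RNA-seq values as all protein-coding rows whose symbol starts with Mrps or Mrpl and a number, which gave 78 of 46671 genes, 29 named for the small subunit and 49 for the large subunit. The rule used no expression value. A further 5 rows with such symbols were annotated as pseudogenes and are not members.

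The 7 libraries came from BALB/C mice of 8 weeks, from tissue labelled as colorectal epithelium. The Ctrl group (n = 3) was wild type. The cKO group (n = 4) lacked MST3, the protein kinase encoded by Stk24, in intestinal epithelial cells; no source used here names the Cre line that removed it, and both groups were described as littermates. The design text speaks of the carcinogen AOM and the colitis-inducing agent DSS, whereas each library's treatment label states that no drug was given, the same in both groups. No label ties a library to a mouse, so the spread behind each p-value is that between these libraries and may in part be technical.

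The mitochondrial ribosome consists of a small subunit, which reads the mRNA, and a large subunit, which joins the amino acids and anchors the particle to the inner membrane. Its RNAs come from mitochondrial DNA, but all its proteins are encoded in the nucleus, made in the cytosol and imported. Some of them descend from the bacterial ribosome and others are found only in mitochondria. Its products are core subunits of the respiratory chain and of ATP synthase. NRF-1 and GABP (NRF-2), an ETS factor, are the nuclear factors best known for binding promoters of genes for mitochondrial proteins, and YY1 is another factor with sites in many such promoters.

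Each library held 14659708 to 19659622 reads recovered from the deposited values, of which 33062 to 57133 fell on the 78 members (0.226% to 0.295%). Each member had between 111 and 3399 reads in each library, so all 78 passed the filter on low values (a mean of at least 0.5 FPKM, reads scaled to gene length and library size) that left 13057 genes for testing. Stk24 itself measured 19.4, 19.4 and 21 FPKM in the Ctrl libraries and 2.92, 3.04, 3.85 and 3.53 FPKM in the cKO libraries, a log2 difference of -2.42 (SE 0.12, limma, Benjamini-Hochberg adjusted p = 0.00043), so the labels hold for the targeted gene. Of 9 small-intestinal genes only Fabp6 was low, at a mean of 1.95 FPKM. The abundant ones were Apoa1 (mean 10868 FPKM), Apoa4 (7376), Fabp2 (5747), Anpep (2191), Sis (645), Lct (400), Mgam (388) and Alpi (368). Of 8 colon genes, Muc2 (134 FPKM), Car4 (103 FPKM) and Slc26a3 (40.9 FPKM) were abundant, whereas Car1 averaged 0.010, Hoxb13 0.10, Aqp8 0.475 and Saa1 0.243 FPKM and Prdx6b was listed at 0 in all libraries. The markers thus did not all follow the colorectal label, and the origin of the tissue was not tested. The summed level of 9 T cell markers was 88.6 to 185 FPKM in Ctrl and 50.5 to 143 FPKM in cKO, that of 7 myeloid markers 13.8 to 22.9 and 13.3 to 22.6 FPKM, and that of 9 B and plasma cell markers 11.6 to 28.5 and 18.8 to 53.9 FPKM. The part of such cells in the differences below was not tested. In such bulk samples, fewer cells of a type and less RNA per cell cannot be told apart.

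The promoters of the members are shown first, searched for the letters of the factors named above and for the TATA box. RefSeq promoter windows on the GRCm38.p6 build, from 250 bases before to 50 after the start, were matched by gene for 69 of the 78 members, giving 75 windows; the build differs from that of the expression table, so the coordinates of the 2 are not mixed. Motifs were searched on both strands: NRF-1 as GCGCA, any base, GCGC; GABP/ETS as CCGGAAG; YY1 as AAGATGGCG; and the TATA box as TATAAA. The ETS letters stood in 26 member promoters (34.7%), against 18.1% of the 11509 promoters of protein-coding genes tested here and 8.86% of all 32851 mouse promoters. The NRF-1 letters stood in 13 (17.3%, against 10.04% and 4.6%) and the YY1 letters in 8 (10.7%, against 3.15% and 1.40%). The TATA letters were the exception, with 5 promoters (6.67%, against 7.45% and 13.6%). The promoters had a median GC content of 58.7%, and those of all tested protein-coding genes 60.3%. Of NRF-1, ETS and YY1, none was matched in 34 of the 75 windows, 1 in 35, and 2 in 6, those of Mrps18a, Mrps21, Mrps26, Mrps27, Mrpl17 and Mrpl57. Matches overlapped in 1 promoter only, that of Mrps26, where an NRF-1 match ran into a second one. A match is a run of letters and not a shown binding site.

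The following promoters, written 5′ to 3′ along each gene with matches in capitals, show these arrangements. Mrpl45, at chr11:97315466-97315765 (plus strand), encodes the protein that ties the large subunit to the inner membrane and has 3 NRF-1 matches. Mrps26, at chr2:130563507-130563806 (plus strand), has an ETS match just before a pair of overlapping NRF-1 matches. Mrps27, at chr13:99344536-99344835 (plus strand), and Mrps18a, at chr17:46110754-46111053 (plus strand), each pair an ETS match before the start with a YY1 match after it. Mrpl52, at chr14:54426659-54426958 (plus strand), the shortest member, has 2 ETS matches, and Mrpl12, at chr11:120484387-120484686 (plus strand), the most abundant member, has 1 NRF-1 match.
Mrpl45: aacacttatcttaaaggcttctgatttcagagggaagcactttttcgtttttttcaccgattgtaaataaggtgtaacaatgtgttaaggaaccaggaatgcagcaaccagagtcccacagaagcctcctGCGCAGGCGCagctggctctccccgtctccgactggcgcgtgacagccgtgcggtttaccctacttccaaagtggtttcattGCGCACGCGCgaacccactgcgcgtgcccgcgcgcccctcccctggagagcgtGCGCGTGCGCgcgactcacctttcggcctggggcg
Mrps26: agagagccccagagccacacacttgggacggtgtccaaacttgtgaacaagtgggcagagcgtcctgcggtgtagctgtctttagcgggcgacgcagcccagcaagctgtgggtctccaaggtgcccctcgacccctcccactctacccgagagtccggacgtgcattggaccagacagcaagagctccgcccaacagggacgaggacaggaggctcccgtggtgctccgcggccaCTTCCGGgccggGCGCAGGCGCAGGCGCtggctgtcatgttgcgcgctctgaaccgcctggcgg
Mrps27: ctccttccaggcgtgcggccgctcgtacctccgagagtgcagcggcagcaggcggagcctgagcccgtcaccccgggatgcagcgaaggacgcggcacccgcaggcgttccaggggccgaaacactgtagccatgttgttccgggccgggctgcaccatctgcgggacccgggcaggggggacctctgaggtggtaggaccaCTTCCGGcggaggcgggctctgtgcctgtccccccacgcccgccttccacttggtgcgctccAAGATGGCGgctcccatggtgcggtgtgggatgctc
Mrps18a: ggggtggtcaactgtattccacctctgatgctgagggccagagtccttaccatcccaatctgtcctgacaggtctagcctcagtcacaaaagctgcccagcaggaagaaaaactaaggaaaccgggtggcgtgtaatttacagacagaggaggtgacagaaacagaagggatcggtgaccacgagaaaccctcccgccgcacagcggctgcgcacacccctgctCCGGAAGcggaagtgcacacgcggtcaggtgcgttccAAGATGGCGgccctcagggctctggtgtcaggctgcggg
Mrpl52: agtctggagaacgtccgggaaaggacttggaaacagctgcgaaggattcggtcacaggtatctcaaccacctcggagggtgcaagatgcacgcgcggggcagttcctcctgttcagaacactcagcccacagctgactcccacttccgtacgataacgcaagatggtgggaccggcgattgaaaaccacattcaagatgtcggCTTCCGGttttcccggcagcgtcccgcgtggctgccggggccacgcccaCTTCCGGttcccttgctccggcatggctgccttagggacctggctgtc
Mrpl12: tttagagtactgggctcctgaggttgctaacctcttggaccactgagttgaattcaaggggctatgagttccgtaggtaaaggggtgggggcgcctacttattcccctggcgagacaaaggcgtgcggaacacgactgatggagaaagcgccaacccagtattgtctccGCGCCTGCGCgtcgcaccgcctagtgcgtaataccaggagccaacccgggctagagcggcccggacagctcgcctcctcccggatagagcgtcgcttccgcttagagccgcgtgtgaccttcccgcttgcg

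One pair of members faces each other across a shared promoter. In the GRCm39 coordinates of the expression table, Mrps11 (chromosome 7, 78432879 to 78442736, plus strand) and Mrpl46 (chromosome 7, 78425089 to 78432837, minus strand) start next to each other on opposite strands, one encoding a small-subunit and the other a large-subunit protein. Their RefSeq windows, chr7:78782881-78783180 (plus strand) and chr7:78783040-78783339 (minus strand), overlap; the first holds a YY1 match on the reverse strand and the second a TATA match.
Mrps11: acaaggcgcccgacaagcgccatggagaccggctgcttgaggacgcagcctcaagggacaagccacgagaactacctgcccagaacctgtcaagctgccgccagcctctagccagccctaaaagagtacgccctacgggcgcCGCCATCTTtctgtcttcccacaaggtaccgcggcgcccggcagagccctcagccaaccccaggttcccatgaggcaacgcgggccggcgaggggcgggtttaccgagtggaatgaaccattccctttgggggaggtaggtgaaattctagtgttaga
Mrpl46: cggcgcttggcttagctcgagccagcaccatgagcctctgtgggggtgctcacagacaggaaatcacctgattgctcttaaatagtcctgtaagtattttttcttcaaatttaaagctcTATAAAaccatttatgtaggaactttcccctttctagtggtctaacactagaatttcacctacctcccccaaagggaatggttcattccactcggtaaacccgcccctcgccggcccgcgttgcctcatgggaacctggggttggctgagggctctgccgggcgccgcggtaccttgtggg
Such head-to-head arrangements were frequent: 30 of 78 members (38.5%) had the start of a protein-coding gene on the other strand within 1000 bases of their own, against 16.5% of the protein-coding genes tested. Partners with a mitochondrial role of their own included Sars2, the mitochondrial seryl-tRNA synthetase, beside Mrps12, and Ptcd2 beside Mrps27. The members lay on 17 chromosomes, and 27 (34.6%) overlapped another annotated gene, against 45.1% of tested protein-coding genes. Since the strand setting of the counting is not given in the sources used here, reads of the 23 members that overlap a gene on the opposite strand may include reads of that gene.

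Between the genotypes the members differed by little. No member passed the test: 0 of 78 had an adjusted p under 0.05 (limma on log2(FPKM + 0.5), 2-sided, Benjamini-Hochberg over all 13057 genes), where 4 genes passed in all (0.0306%), and the smallest adjusted p of a member was 0.458, for Mrpl23. At an unadjusted p under 0.05, 9 members were lower in cKO (background 4.73% of all genes tested) and 1 was higher (background 4.24%). The log2 difference, cKO minus Ctrl, was below 0 for 57 of 78 members (73.1%; 51.3% of all genes tested), with a median of -0.12 beside -0.0077 over all genes and a range from -0.57 for Mrps10 to 0.40 for Mrps22. These differences understate the change of low genes because of the added 0.5 FPKM. Rescaled to a common sum (TPM), 42 members lay below 0 (38.7% of all genes) with a median of -0.038, and after quantile normalization 46 (46.5%) with a median of -0.062. Without Ctrl replicate 1 the median was -0.073, with 49 members below 0, and without cKO replicate 3 there were 48 members below 0.

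**Figure D1:**
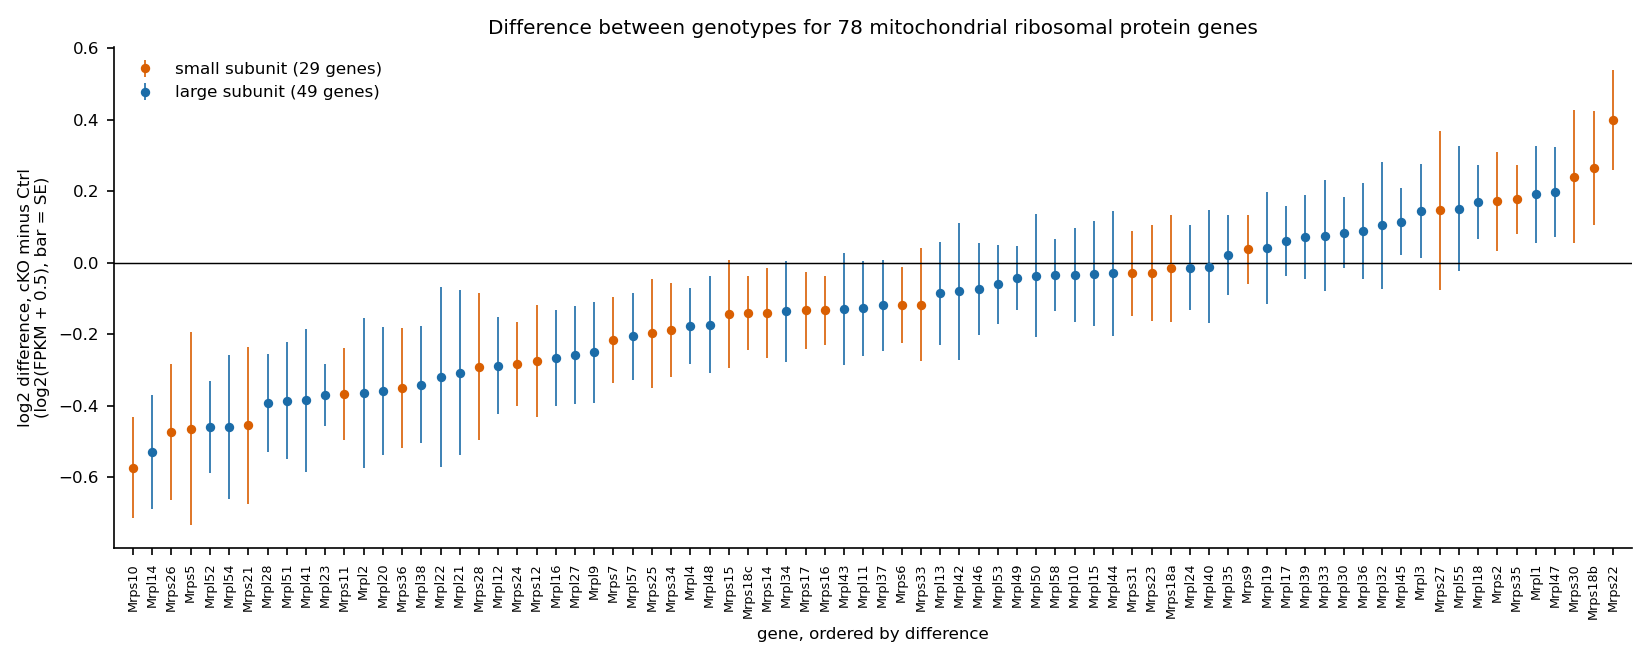
Log2 difference between genotypes (vertical axis, cKO minus Ctrl on log2(FPKM + 0.5), points with SE) for the 78 genes in order of difference, orange for genes named for the small and blue for those named for the large subunit. Both colours run from one end to the other, 57 genes lie below 0, and no gene passed the adjusted test.

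The members' levels also varied between libraries of 1 genotype. Relative to each gene's Ctrl mean, the mean over the 78 members was 0.10, -0.031 and -0.070 log2 units in Ctrl replicates 1, 2 and 3 and 0.017, -0.16, -0.26 and -0.075 in cKO replicates 1 to 4. Thus cKO replicate 1 lay among the Ctrl libraries, cKO replicate 3 lay lowest, and the groups overlapped. Of the 78 members, 31 had their highest value in Ctrl replicate 1 and 35 their lowest in cKO replicate 3. The small and large subunits moved together: their means were -0.28 and -0.26 in cKO replicate 3 and 0.11 and 0.096 in Ctrl replicate 1. Without cKO replicate 1, 21 members were lower (background 5.91%) and 1 was higher (background 4.25%) at an unadjusted p under 0.05, and still 0 passed after adjustment. That library is singled out because its member values lay near Ctrl, which favours a larger count. At the same level, 4 were lower and 2 higher without Ctrl replicate 1, and 5 and 2 without cKO replicate 3. No share over all genes is given for those 2 fits.

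**Figure D2:**
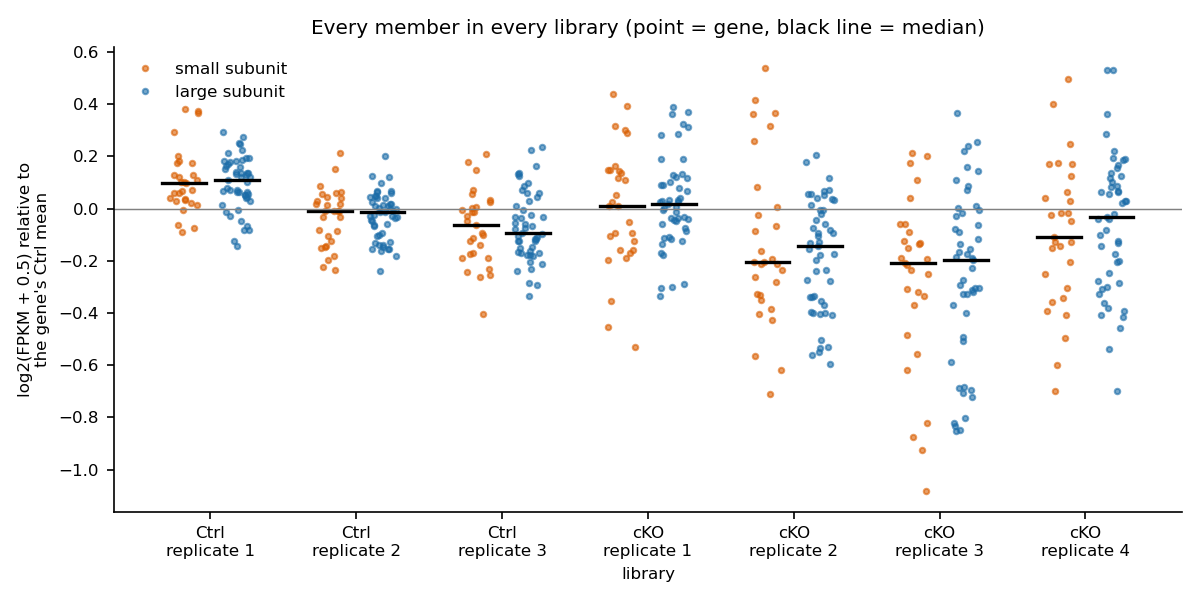
Each member in each library as log2(FPKM + 0.5) relative to its own Ctrl mean (vertical axis; horizontal axis, the 7 libraries), 1 point per gene, with the median of each subunit as a black line. The clouds of Ctrl replicate 1 and cKO replicate 1 sit highest, that of cKO replicate 3 sits lowest, and the subunits shift alike within a library.

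Of the small-subunit genes, 22 of 29 had a difference below 0 (median -0.14), and of the large-subunit genes 35 of 49 (median -0.080, or 0.0078 rescaled to a common sum). Both ranges cross 0, and the members are not replicates, so no test separates the subunits. Symbols and structure do not match fully: the products of Mrps30 and Mrps18a sit in the large subunit, and that of Mrps36 belongs to the 2-oxoglutarate dehydrogenase complex of the citric acid cycle. With the first 2 moved and Mrps36 left out, the counts were 20 of 26 (median -0.14) and 36 of 51 (median -0.073). For the division by descent, Mrps28 was left unassigned and Mrps30, Mrps18a and Mrps36 were left out. Of small-subunit genes with a bacterial counterpart 13 of 15 lay below 0 (median -0.14), against 6 of 10 without one (median -0.029). In the large subunit, 18 of 30 with a counterpart (median -0.059) and 17 of 19 without one (median -0.080) lay below 0. As deposited, the direction of that contrast was thus not shared by the subunits. With the length trend described below removed, the large subunit hardly differed by descent, with 15 of 30 and 9 of 19 below 0. The medians with and without a counterpart were then -0.080 and 0.070 in the small and -0.0030 and 0.0062 in the large subunit.

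The members whose groups did not overlap were 6 lower in cKO (background 4.51% of all genes tested) and 2 higher (background 5.62%), and for a single gene the exact permutation test over the 35 ways to divide 7 libraries into 3 and 4 cannot give a p below 0.0571. Mrpl23 encodes a protein at the exit of the large subunit's peptide tunnel (gene on chromosome 7, 142086204 to 142094484, GRCm39). It measured 21, 20.2 and 20.5 FPKM in Ctrl and 16.2, 15.8, 15.8 and 15.4 FPKM in cKO. Every cKO library lay below every Ctrl library and both groups were tight, with means of 20.6 ± 0.407 and 15.8 ± 0.338 FPKM (SD). The log2 difference was -0.37 (SE 0.087, limma adjusted p = 0.458).

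Mrps10, a protein of the small subunit's head with a bacterial counterpart (chromosome 17, 47679803 to 47692343), was the least abundant member as deposited. It measured 4.20, 4.16 and 3.96 FPKM in Ctrl and 2.68, 3.03, 2.01 and 2.76 FPKM in cKO, so that cKO replicate 3 was lowest. Its difference was the largest below 0 among the members, -0.57 (SE 0.14, limma adjusted p = 0.473). Mrpl14, a large-subunit protein at the face that meets the small subunit (chromosome 17, 45991689 to 46009421), measured 5.86, 4.68 and 5.04 FPKM in Ctrl and 4.55, 3.34, 3.03 and 2.998 FPKM in cKO. Here cKO replicate 1 came close to Ctrl replicate 2, and the difference was -0.53 (SE 0.16, limma adjusted p = 0.511). Mrpl14 overlaps Tmem63b on the opposite strand.

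Mrpl52, a protein found only in mitochondrial large subunits and the second most abundant member (chromosome 14, 54664366 to 54667207), measured 133, 124 and 124 FPKM in Ctrl and 104, 96.3, 78.2 and 92.1 FPKM in cKO. The gap between the groups was wide beside the Ctrl spread, and the difference was -0.46 (SE 0.13, limma adjusted p = 0.503). Mrpl51, also specific to mitochondria (chromosome 6, 125169163 to 125171355), measured 46.0, 43.6 and 43.7 FPKM in Ctrl and 43.2, 31.2, 26.8 and 36.5 FPKM in cKO. Only a narrow gap separated cKO replicate 1 from the Ctrl libraries, at a difference of -0.39 (SE 0.16). Mrps24, whose bacterial counterpart lines the mRNA entry of the small subunit, measured 50.2, 45.8 and 42.6 FPKM in Ctrl and 42.3, 34.2, 39.1 and 36.2 FPKM in cKO, a difference of -0.28 (SE 0.12).

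Higher in cKO without overlap were Mrps35, of the small subunit, and Mrpl45, the membrane anchor of the large subunit. Mrps35 measured 12.1, 11.8 and 10.8 FPKM in Ctrl and 12.5, 13.9, 13.4 and 12.6 FPKM in cKO, a difference of 0.18 (SE 0.097, limma adjusted p = 0.625). Mrpl45 measured 11.1, 11 and 9.98 FPKM in Ctrl and 12.3, 11.6, 11.3 and 11.3 FPKM in cKO, a difference of 0.12 (SE 0.095, limma adjusted p = 0.740). In both, the lowest cKO and highest Ctrl libraries nearly met.

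**Figure D3:**
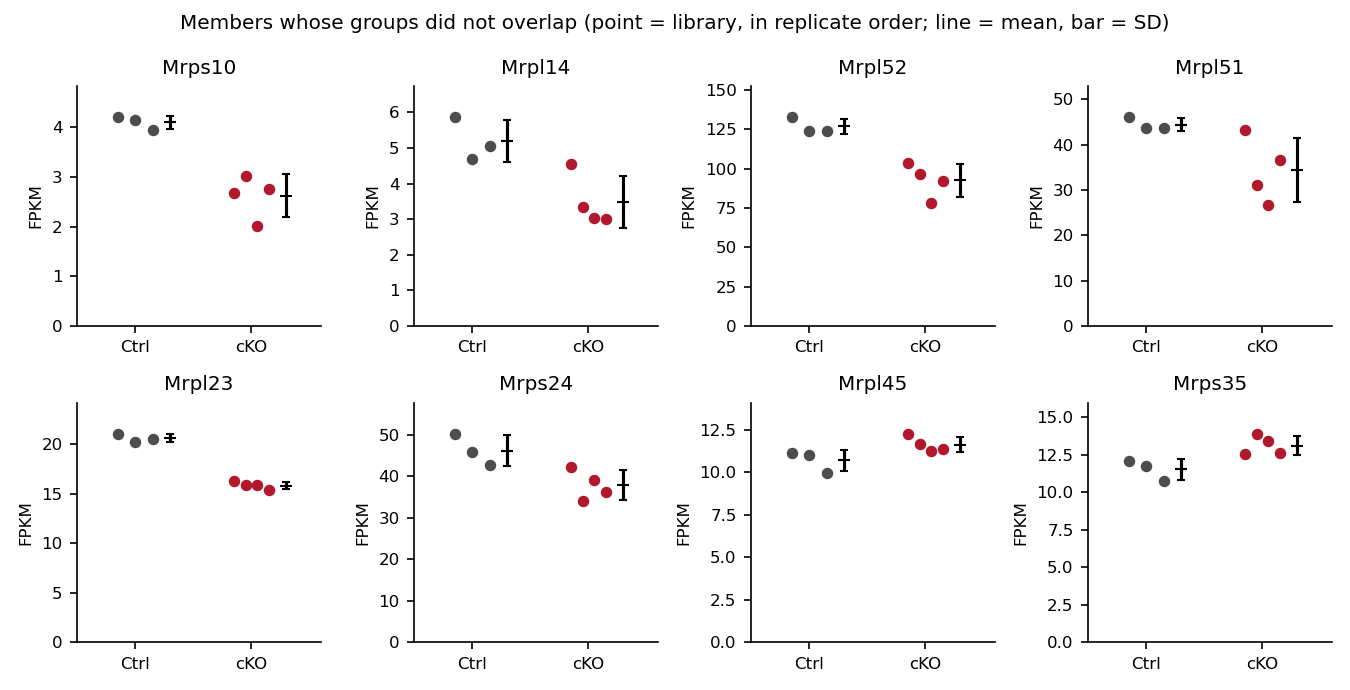
FPKM of the 8 members whose groups did not overlap (vertical axes from 0; points are libraries in replicate order, with mean and SD beside them). In Mrpl23 the groups stand apart from 20.2 or more to 16.2 or less, whereas in Mrpl51, Mrps24, Mrpl45 and Mrps35 they nearly touch.

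The other members under an unadjusted p of 0.05 had overlapping groups. Mrps22, a small-subunit protein specific to mitochondria, had the largest difference above 0, with 15.5, 12.5 and 16.9 FPKM in Ctrl and 19.7, 21.8, 16.8 and 21.2 FPKM in cKO (log2 0.40, SE 0.14, limma adjusted p = 0.516). Only cKO replicate 3 fell within the Ctrl range. Mrps11, whose bacterial counterpart helps form the platform of the small subunit, measured 15.2, 14.7 and 12.4 FPKM in Ctrl and 12.4, 11.1, 9.39 and 10.5 FPKM in cKO (log2 -0.37, SE 0.13). Its head-to-head neighbour Mrpl46 measured 22.3, 22.4 and 25.7 FPKM in Ctrl and 24.9, 21, 19.0 and 24.6 FPKM in cKO, a difference of -0.073 (SE 0.13). Across this shared promoter, Mrps11 was thus nearly separated by genotype and Mrpl46 was not; the difference between them was not tested. Mrpl28, of the large subunit, measured 60.4, 54.5 and 48.0 FPKM in Ctrl and 49.2, 40.7, 38.3 and 37.1 FPKM in cKO (log2 -0.39, SE 0.14). Mrps26, specific to the mitochondrial small subunit, measured 37.1, 31.4 and 42.5 FPKM in Ctrl and 34.3, 23.7, 20.5 and 28.5 FPKM in cKO (log2 -0.47, SE 0.19). In each case cKO replicate 1 was the cKO library inside the Ctrl range. Mrpl54 came next, with means of 70.7 ± 13.2 FPKM in Ctrl and 51.6 ± 11 FPKM in cKO (SD), log2 -0.46 (SE 0.20).

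Members with a defined task on the ribosome had differences on both sides of 0. Mrpl12 and Mrpl10 form the stalk that recruits translation factors. Mrpl12 measured 179, 143 and 149 FPKM in Ctrl and 145, 122, 118 and 128 FPKM in cKO (log2 -0.29, SE 0.14), with cKO replicate 1 inside the Ctrl range. Mrpl10 differed by -0.033 (SE 0.13), and its sign turned under rescaling to a common sum, where it was 0.054. Mrps12, a protein of the decoding centre, averaged 27.8 ± 2.12 FPKM in Ctrl and 23.2 ± 4.63 FPKM in cKO (SD), log2 -0.27 (SE 0.16). Mrpl3, beside the catalytic centre, differed by 0.15 (SE 0.13), and Mrps2, whose bacterial counterpart lies between head and body of the small subunit, by 0.17 (SE 0.14). Mrps27, a pentatricopeptide repeat protein, differed by 0.15 (SE 0.22) and by -0.056 without Ctrl replicate 3. Mrpl58, the peptidyl-tRNA hydrolase that was recruited into the large subunit, averaged 11 ± 0.943 and 10.7 ± 0.390 FPKM. Mrpl44, which has a ribonuclease III fold, averaged 15.1 ± 3.11 and 14.7 ± 2.50 FPKM. Neither differed by more than the spread between libraries, and both signs turned under rescaling to a common sum, to 0.050 and 0.056.

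Genes whose symbol and place differ lay on both sides of 0. Mrps30, a large-subunit protein, measured 25.8, 20.5 and 17.4 FPKM in Ctrl and 25.9, 28.1, 18.8 and 27.8 FPKM in cKO, a difference of 0.24 (SE 0.18) with overlapping groups. Mrps36 measured 52.2, 57.7 and 56.8 FPKM in Ctrl and 40.4, 33.7, 47.7 and 54.8 FPKM in cKO, a difference of -0.35 (SE 0.17), with cKO replicate 4 inside the Ctrl range. Mammals carry 3 relatives of one bacterial protein, Mrps18a, Mrps18b and Mrps18c, of which only the last takes its counterpart's place. Their differences were -0.015 (SE 0.15), 0.27 (SE 0.16) and -0.14 (SE 0.10), none beyond the spread between libraries, and that of Mrps18a turned to 0.071 under rescaling to a common sum.

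The difference also went with gene length. Over all 13057 genes tested, shorter genes were lower in cKO, with a Spearman rho of 0.30 between difference and deposited gene length; over the 78 members rho was 0.22, over the small subunit 0.32 (29 genes) and over the large subunit 0.18 (49 genes), all across genes that share the same 7 libraries. Of the 26 shortest members (412 to 1049 bases), 21 lay below 0 (median -0.14), beside 70.1% of all genes of that length (median -0.18). Of the 26 in the middle (1055 to 2103 bases), 23 did (median -0.13), beside 65.6% (median -0.10). Of the 26 longest (2116 to 8707 bases), 13 did (median 0.0042), beside 47.3% (median 0.014). In each library of the Ctrl group the level of all genes leaned slightly towards short genes and in each of the cKO group towards long ones: the slope of log2 level, relative to the mean of the libraries, on log2 length was -0.019, -0.027 and -0.030 in Ctrl and 0.0061, 0.023, 0.028 and 0.019 in cKO.

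When the length trend of each library was removed, the members lay about evenly on both sides of 0: 38 of 78 lay below 0 (49.95% of all genes), with a median of 0.0033, 0.018 for the small and 0.00038 for the large subunit. The library means became 0.061, -0.011 and -0.049 in Ctrl and 0.073, -0.034, -0.14 and -0.013 in cKO. An alternative chosen after seeing the data removed the trend on transcript lengths from GENCODE M21 in place of the deposited lengths. It covered only the 10898 protein-coding genes that have such a length. There 49 of 78 members lay below 0 (50.4% of all genes in that fit), with a median of -0.041. Mrpl23 (-0.28), Mrps10 (-0.61), Mrpl14 (-0.61) and Mrpl4 (-0.26) were the 4 members lower at an unadjusted p under 0.05 after removal of the trend on deposited length (background 3.64%). Mrps22 (0.53), Mrps18b (0.37), Mrpl47 (0.37), Mrpl36 (0.25) and Mrpl18 (0.21) were the 5 then higher at that level (background 4.13%). None passed after adjustment, the smallest adjusted p being 0.583. What gave rise to the length trend was not tested.

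**Figure D4:**
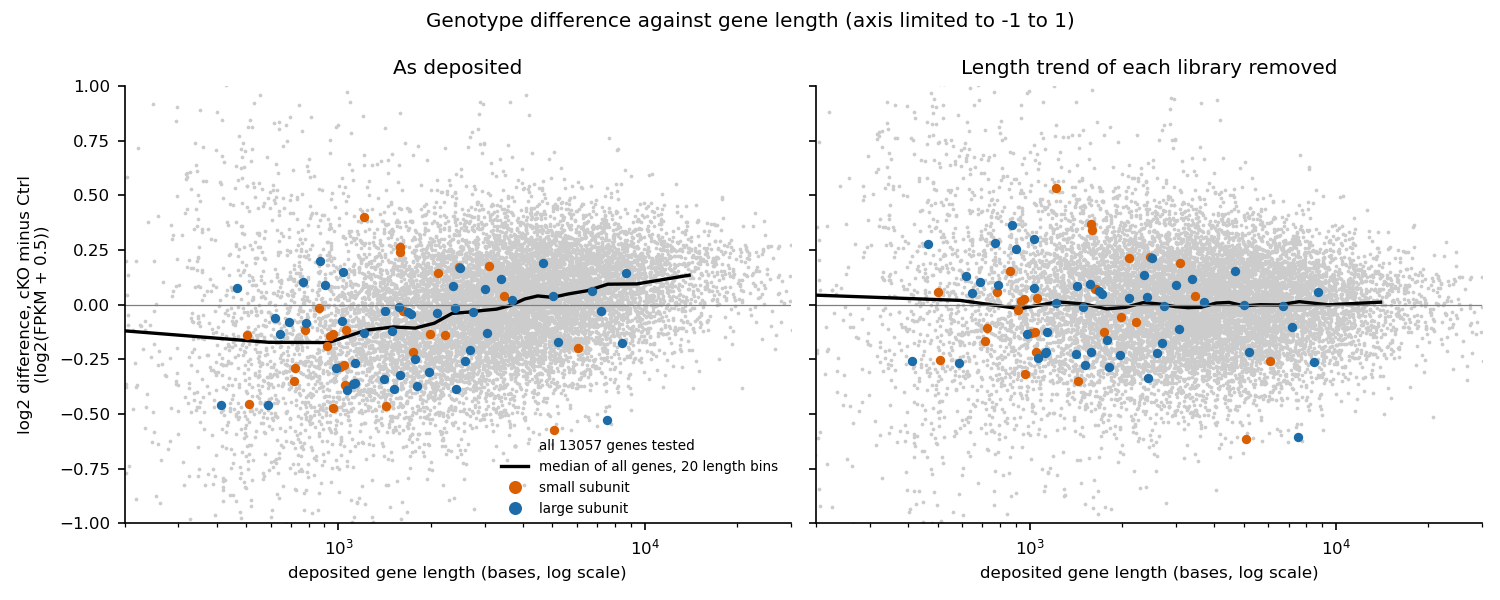
Log2 difference between genotypes against deposited gene length (log axis), as deposited on the left and with each library's length trend removed on the right; grey points are all genes tested, the black line their median in 20 bins, coloured points the members. On the left the members follow the rise of the grey cloud with length; on the right they scatter about 0, with Mrps10 and Mrpl14 low and Mrps22 high.

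Member levels spanned 43.1-fold from Mrps10 to Mrpl12, although the ribosome, apart from its stalk, holds its proteins in nearly equal numbers. The median member had a mean of 19.4 FPKM, and the quartiles were 11.3 and 31.0 FPKM. Besides Mrpl12 and Mrpl52 the highest were Mrpl34 (90.4 ± 9.44 FPKM in Ctrl, 82.4 ± 9.999 in cKO, SD), Mrps21 (80.1 ± 10.8 and 59.7 ± 16.6) and Mrpl42 (61.7 ± 3.95 and 59.5 ± 13.2). Mrps25 (3.93 ± 0.316 and 3.40 ± 0.675 FPKM), Mrpl14 and Mrps10 were lowest. Level was lower at greater deposited length among the members (Spearman rho -0.82 across 78 genes) and much less so among all genes (rho -0.11). The number of reads per member hardly varied with length (rho 0.097), and FPKM divides reads by that length, so a low rho among the members follows from the division.

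The deposited lengths themselves bear on this order. They were above 2 times the median GENCODE M21 mRNA length in 20 of 78 members: 7525 against 645 bases for Mrpl14, 8452 against 815 for Mrpl4, and 5073 against 1018 for Mrps10. With the same reads divided by the GENCODE length, the mean level of Mrpl14 went from 4.21 to 49.2 FPKM, that of Mrpl4 from 7.09 to 73.5 and that of Mrps10 from 3.26 to 16.2. Mrps25 (6076 and 6073 bases) kept its low level of 3.63 FPKM. Other members went the opposite way: the deposited length was 962 against 4278 bases for Mrps26 and 872 against 3364 for Mrpl47. Their levels went from 31.2 to 7.01 and from 16.2 to 4.21 FPKM. Which length is nearer to the transcripts present was not tested. The spread of levels over the 78 members hardly narrowed, from an SD of 1.17 to 1.12 on the log2 scale. Level per GENCODE length was lower at greater GENCODE length (Spearman rho -0.79), but that level is itself divided by that length. Deposited FPKM against GENCODE length gave a rho of -0.35. A gene's length is the same in every library, so the ratio of its FPKM values between genotypes does not depend on it. The log2 differences depend on it through the added 0.5 FPKM. Those with the length trend removed depend on it directly. With that trend removed, 38 members lay below 0 on deposited lengths and 49 on GENCODE lengths. These 2 fits also differed in their genes, 13057 and 10898, so the counts do not differ by length alone.

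**Figure D5:**
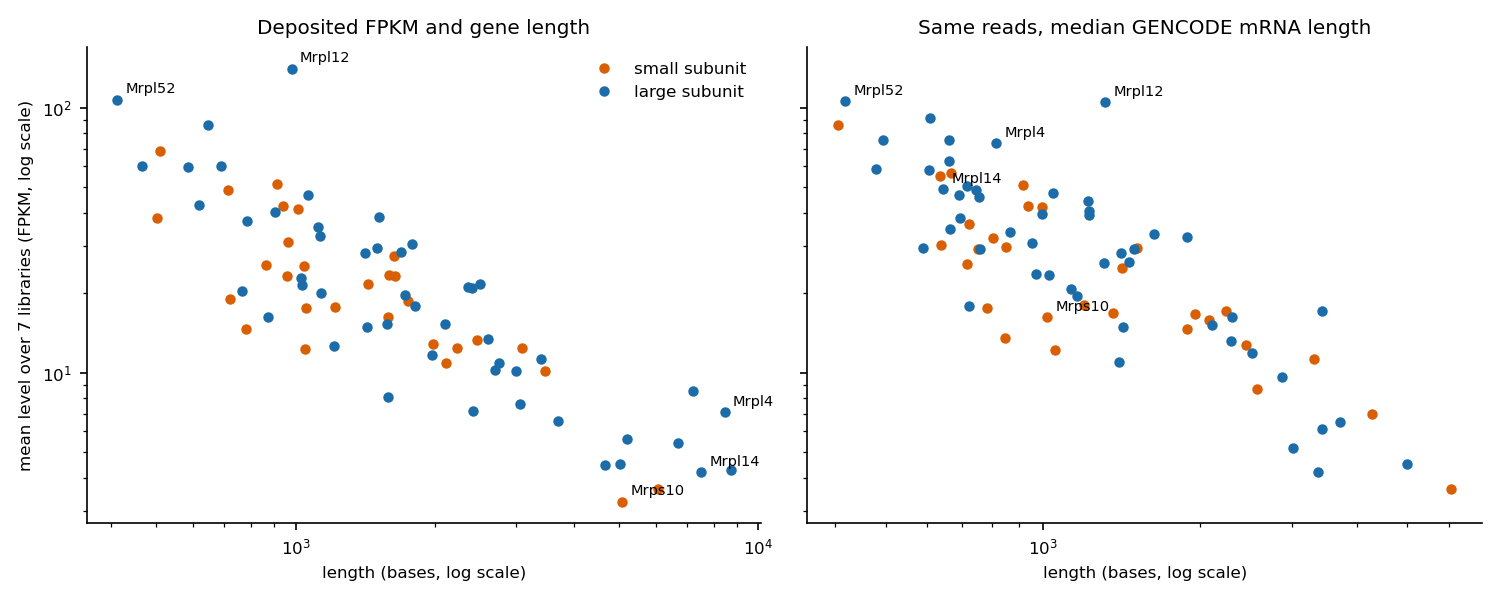
Mean FPKM over the 7 libraries against gene length (both axes logarithmic) for the 78 members, with deposited values and lengths on the left and the same reads per median GENCODE mRNA length on the right. Mrpl14 and Mrpl4 move from the long, low end to levels of 49.2 and 73.5 FPKM, while Mrpl12 and Mrpl52 stay at the top.

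The differences are set beside the promoter motifs as a description, with no test. Members with the NRF-1 letters lay below 0 in 7 of 13 cases (median -0.030), those without in 43 of 56 (median -0.12). With the ETS letters it was 19 of 26 (median -0.13), without 31 of 43 (median -0.12). With the YY1 letters it was 5 of 8 (median -0.047), without 45 of 61 (median -0.13). All 5 members with TATAAA lay below 0 (median -0.17), as did 45 of 64 without (median -0.12). Of the promoters printed above, that of Mrpl45 belongs to a member higher in cKO without overlap and that of Mrpl52 to a member lower without overlap, while the Mrps27 and Mrps18a groups overlapped. Members with a head-to-head neighbour lay below 0 in 24 of 30 cases (median -0.13), and those that overlap no other gene in 38 of 51 (median -0.14).

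Subunits of the same ribosome that carry other names gave similar values. Of Dap3, Chchd1, Ptcd3, Aurkaip1 and Gadd45gip1, 4 of 5 lay below 0 (median -0.077), with none past the test or at an unadjusted p under 0.05. Dap3, a small-subunit GTP-binding protein, averaged 10.9 ± 0.812 FPKM in Ctrl and 9.49 ± 1.02 FPKM in cKO (SD; log2 -0.20, SE 0.12). Gadd45gip1, of the large subunit, differed by -0.29 (SE 0.17). Ptcd3, of the small subunit, was the one above 0, without overlap: 8.82, 8.71 and 7.35 FPKM in Ctrl and 10.6, 11.1, 8.91 and 9.35 FPKM in cKO (log2 0.25, SE 0.12, limma adjusted p = 0.585).

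Of the genes that build and serve the mitochondrial ribosome, none passed the adjusted test, and their list medians lay on both sides of 0. At an unadjusted p under 0.05, 1 translation factor was higher, 2 assembly factors were lower and 1 was higher, 2 genes of mitochondrial transcription and RNA handling were higher, 1 regulator was lower, and no tRNA synthetase was at that level, beside 4.73% lower and 4.24% higher over all genes tested. Of 13 matched translation factors (of 14 listed), 7 lay below 0 (median -0.035). Tufm, the elongation factor that brings aminoacyl-tRNA, averaged 80.0 ± 5.30 and 73.0 ± 11.9 FPKM. Mrrf, the recycling factor, was higher without overlap, with 4.02, 3.45 and 3.96 FPKM in Ctrl and 4.5, 4.98, 5.04 and 4.56 FPKM in cKO (log2 0.29, SE 0.11, limma adjusted p = 0.524). Guf1, an elongation factor of the LepA family, differed by 0.27 (SE 0.17). Of 28 assembly factors 16 lay below 0 (median -0.0085). The clearest in each direction were Mpv17l2, needed for large-subunit assembly, with 33.5, 27.3 and 24.6 FPKM in Ctrl and 19.8, 21, 20.6 and 23.3 FPKM in cKO (log2 -0.41, SE 0.13), and the GTPase Gtpbp10, with 4.18, 4.17 and 3.61 FPKM in Ctrl and 5.55, 5.54, 5.59 and 4.53 FPKM in cKO (log2 0.37, SE 0.12). Neither gene's groups overlapped, and for both the limma adjusted p was 0.511.

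Of 20 mitochondrial tRNA synthetases 9 lay below 0 (median 0.058). Sars2, the neighbour of Mrps12, differed by -0.29 (SE 0.17), and Vars2, the valyl-tRNA synthetase, by -0.26 (SE 0.15). Whether head-to-head neighbours changed together was not tested. Of 15 tested genes for mitochondrial transcription and RNA handling 4 lay below 0 (median 0.095). Among them Tfb2m, the transcription factor that opens mitochondrial promoters, averaged 4.47 ± 0.739 and 6.12 ± 1.25 FPKM (log2 0.41, SE 0.17), and Fastkd1, an RNA-binding regulator, was higher without overlap (log2 0.33, SE 0.13). Polrmt, the mitochondrial RNA polymerase, differed by 0.095 (SE 0.099) and Tfam, which packages mitochondrial DNA, by 0.096 (SE 0.15).

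Of 9 nuclear regulators of mitochondrial genes 3 lay below 0 (median 0.016). Esrra, the nuclear receptor ERR alpha, stood out: it measured 154, 145 and 141 FPKM in Ctrl and 119, 83.6, 84.4 and 122 FPKM in cKO. The groups did not overlap, and the difference was -0.54 (SE 0.17, limma adjusted p = 0.511). Gabpa, the DNA-binding subunit of GABP, differed by 0.23 (SE 0.12) and Nrf1, which encodes NRF-1, by 0.016 (SE 0.14). Ppargc1a, the coactivator PGC-1 alpha, averaged 3.40 ± 1.31 and 3.90 ± 1.40 FPKM.

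The mRNAs that the ribosome translates pointed the other way without passing the test. All 13 mitochondrially encoded mRNAs had differences above 0 (median 0.50), from 0.044 for COX2 to 1.09 for COX3, with none past the adjusted threshold and 1, ND5, at an unadjusted p under 0.05. They share a genome and polycistronic transcripts, and their mean relative to Ctrl was -0.36, 0.42 and -0.064 in Ctrl replicates 1 to 3 and -0.39, 0.088, 1.16 and 0.99 in cKO replicates 1 to 4. The groups overlapped for each of the 13 mRNAs. The high values were those of cKO replicates 3 and 4, of which replicate 3 was also the library with the lowest ribosomal protein mean. The 2 rRNAs of the mitochondrial ribosome, from the same genome, lay on either side of 0. Their differences were -0.13 (SE 0.42) for mt-Rnr1 and 0.14 (SE 0.38) for mt-Rnr2. For the ribosome outside mitochondria, protein-coding genes whose symbol starts with Rpl or Rps and a number were taken. That rule does not exclude genes with such symbols that encode no ribosomal protein. Of 96 tested, 74 lay below 0 (median -0.16), and the median of the 96 was -0.056 once the length trend was removed.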

How the data were processed

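RNA was extracted with Trizol, per the labels' protocols, and reads were aligned with HISAT2, per the submitters' processing notes; the sources used here do not give its version, the counting program or its strand setting. The deposited table holds FPKM per gene and library, which the authors made with library sizes that differ from the totals. FPKM times gene length gave whole reads for 100% of values within 0.01, so depth could be recovered. Genes averaging 0.5 FPKM or more were compared on log2(FPKM + 0.5) with limma 3.58.1 in R 4.3.3 (lmFit, eBayes with trend, 2-sided, no covariate, all 7 libraries), Benjamini-Hochberg adjusted over 13057 genes, threshold 0.05; the fit was tested on simulated data. The length trend was a lowess curve (span 0.3) per library. List counts, medians and correlations over genes are descriptions with no test. Named were Stk24, the 12 members with the smallest p, and the 5 highest, 3 lowest, longest and shortest members. Also named were 12 members and 7 other genes by role, and 2 per companion list by p. Mrps35, Mrpl46, Mrpl4, Mrpl18, Mrpl36, Mrpl47, Mrps18b, Mrps18c, COX2, COX3, ND5, mt-Rnr1 and mt-Rnr2 were added after their values were seen. Members and lists were chosen with earlier results of these data known. Alternatives were pseudocounts of 0.1 and 1, other filters, scalings, weights and models, a replicate block, removal of the length trend, and leaving out each library. Libraries were distinct: chi-square per degree of freedom was at least 21.5 in every pair. It was lowest between cKO replicates 1 and 2 (21.5) and between cKO replicates 3 and 4 (29.7). Across these 2 pairs it ran from 56.5 to 82.0, beside 37.5 to 79.6 between Ctrl and cKO libraries. The cKO libraries thus fell into 2 pairs, and the reason was not tested.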

Additional observations from a re-analysis of the deposited data

Results flagged for a closer look

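Of 49 groups of values checked for a single outlying library, 2 had one, and chance flags about 1 in 20 groups. Gtpbp10 in cKO replicate 4 was 4.53 FPKM, where the next lowest cKO library had 5.54 FPKM. Ppargc1a in cKO replicate 3 was 5.98 FPKM, where the next highest cKO library had 3.35 FPKM.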

How the results depend on the processing

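The number of members passing the adjusted test was 0 under every alternative at that threshold; at an unadjusted p of 0.05 it was 10. Over all genes, 4 passed in the main analysis, 1 with a pseudocount of 0.1, without a filter, with a mean of at least 1 FPKM and with either length trend removed, 2 with protein-coding genes only and with voom, and 1 to 7 when a library was left out. Members below 0 numbered 38 with the deposited-length trend removed and 48 to 58 when a library was left out. Members at an unadjusted p under 0.05 numbered 6 under rescaling to a common sum (TPM) and under quantile normalization. They numbered 5 to 22 when a library was left out. The 22 were without cKO replicate 1, where 5.91% of all genes were lower and 4.25% higher at that level. No share over all genes is given for the other fits in this count, so their numbers cannot be set against a background. Rescaling to a common sum put the median of all genes at 0.070, with 42 members below 0; 54 lay below that median. Median differences when a library was left out ran from -0.173 to -0.073 for all members, -0.196 to -0.104 for the small and -0.147 to -0.047 for the large subunit. They turned with the deposited-length trend removed, to 0.0033, 0.018 and 0.00038, and for the large subunit under TPM, to 0.0078.

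For 27 named members 536 of 567 alternative values kept sign and side of the threshold. The 31 that turned, in 7 genes with small differences, were as follows. With the deposited-length trend removed they were Mrpl34 at 0.053, Mrpl42 at 0.11, Mrpl10 at 0.062, Mrpl44 at 0.086 and Mrps18a at 0.15; with the GENCODE trend, Mrpl42 at 0.025, Mrpl10 at 0.034, Mrpl44 at 0.022 and Mrps18a at 0.077. Under TPM they were Mrpl42 at 0.0078, Mrpl10 at 0.054, Mrpl44 at 0.056, Mrpl58 at 0.050 and Mrps18a at 0.071; under quantile normalization, Mrpl42 at 0.012, Mrpl10 at 0.033, Mrpl44 at 0.0021 and Mrps18a at 0.040; with array weights, Mrpl44 at 0.0047 and Mrps18a at 0.014. Leave-one-out values, lowest to highest, were -0.17 to 0.089 for Mrpl42, -0.12 to 0.048 for Mrpl10, -0.17 to 0.12 for Mrpl44, -0.093 to 0.026 for Mrpl58, -0.056 to 0.33 for Mrps27 and -0.10 to 0.092 for Mrps18a. Among 19 other genes Nrf1 turned with the length trend (-0.11), array weights (-0.017) and a library left out (-0.021 to 0.087), and Ppargc1a with array weights (-0.054) and a library left out (-0.085 to 0.42). The cause was not tested.

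Titles number the libraries 1 to 3 and 1 to 4, and the replicate numbers used here follow the titles. Same-numbered libraries did not deviate together (correlations 0.12, -0.087 and -0.13), but so few libraries cannot exclude a shared litter or batch. The deposited columns carry other numbers than the titles, and none of those is shared by the groups. With the replicate number as a block, 0 genes passed (Stk24: limma adjusted p = 0.137) and 58 members lay below 0 (51.4% of all genes). In that fit 11 members had an unadjusted p under 0.05, with no share over all genes given. Mrpl44 turned to 0.029 and Nrf1 to -0.021. This fit gives cKO replicate 4, which has no Ctrl library of its number, no weight.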
